A study of Mus musculus with 20 samples.

Results

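The potassium and HCN channel genes were taken as the protein-coding genes of the deposited table whose mouse symbol begins with Kcn, or with Hcn and a digit. This rule gave 87 of the 19463 genes. The annotation holds 98 protein-coding genes with such symbols, and the other 11 were not analysed here. RNA was sequenced from the whole brain of male mice at P21 (3 weeks) and P70 (10 weeks). Each age had 5 Katnal2-KO and 5 WT mice, 20 in all. Katnal2-KO mice carried a homozygous deletion of exon 3 of Katnal2, a relative of the microtubule-severing katanins, which shifts the reading frame. The deletion was made with a cell-permeable Cre in early embryos and is present in every tissue, and both genotypes were on the C57BL/6J background. WT mice were of the same sex and ages, littermates of both genotypes were housed together, and no group received a treatment. Each mouse gave 1 library, so every spread below is between animals. No label names a batch, so the age groups and any batch that followed age cannot be told apart.

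Potassium channels let K+ leave the cell and so bring neurons back to rest after a spike, set the resting potential and limit repetitive firing. They fall into voltage-gated Kv channels, calcium- or sodium-activated channels, inward rectifiers (Kir) and the 2-pore leak channels (K2P), with auxiliary subunits that change their gating and traffic. HCN channels pass a cation current that opens on hyperpolarization and is known for pacemaking and for shaping dendritic signals. In the brain, Kir and K2P channels of astrocytes take up K+ released by neurons, and the choroid plexus, which makes the cerebrospinal fluid, has its own potassium channels.

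Values are normalized read counts, that is, estimated reads per gene scaled between mice. They summed to between 27310523 and 28423042 per mouse, which is the result of the scaling and does not show the sequencing depth. Katnal2 itself ranged from 78.1 to 96.0 in KO and from 99.3 to 115.4 in WT mice at P21, and from 95.1 to 125.5 in KO and from 101.3 to 141.5 in WT mice at P70. The deletion removes a single exon, so the level of the remaining transcript is no check of the label. Among the P70 mice, KO mouse 5 and WT mouse 5 stood apart from the rest. Their log2 values correlated with each other at r = 0.988 across genes, and with any other P70 mouse at 0.977 or less, while the other 8 correlated at 0.983 or more among themselves. Markers of excitatory neurons (6 of 6), astrocytes (7 of 7) and mature oligodendrocytes (7 of 7) were detected in every group. Results that rest on P70 mice are therefore given with both mice and, where it matters, without them. In whole brain, fewer cells of a type and less RNA per cell cannot be told apart.

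Of the 87 genes, 81 had a value of at least 10 in every mouse, and 41 had a mean above 1000. Levels of different genes were compared per kb of exon, as the mean over all 20 mice ± SD. The highest was Kcnab2, the Kv beta subunit that joins Kv1 channels, at 1840 ± 281 normalized reads per kb. Also high were Hcn2 at 1540 ± 268, the astrocyte Kir subunit Kcnj10 at 1490 ± 156 and the K2P subunit Kcnk1 at 1430 ± 102. The top 5 genes held 26.6% of the summed level per kb, the top 10 held 43.1% and the top 20 held 65.4%. From Hcn2 to Kcnk1, neighbours in this order differed by less than their SDs over mice. After them came the GIRK subunit Kcnj9 at 1070 ± 93.6 per kb and the strong inward rectifier Kcnj4 at 1060 ± 104, which lay together and more than 1 SD below Kcnk1.

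Among the voltage-gated families, the leading genes were Kcna2 (850 ± 99.9 per kb) in Kv1, Kcnd2 (624 ± 82.7) in Kv4 and Kcnh3 (542 ± 74.8) among the EAG, ERG and ELK channels. Among the silent Kv subunits, which form no channel alone and modify Kv2, Kcnf1 led at 601 ± 56.9 per kb. The sodium-activated Kcnt1 led the Slo family at 781 ± 140, and Kcnn2 led the small-conductance calcium-activated family at 167 ± 9.48, the lowest lead of any channel family. The low end held Kcnn4, the intermediate-conductance channel of blood cells, at 1.63 ± 0.598 per kb, the epithelial and cardiac Kcnq1 at 3.00 ± 1.82, and Kcnk15 at 3.98 ± 2.03. Kcnrg, a regulator of Kv channels that the symbol rule also takes, had 9.95 ± 2.58 per kb. Kcnn4 and Kcnk15 had a mean under 10 reads and were not tested.

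**Figure D1:**
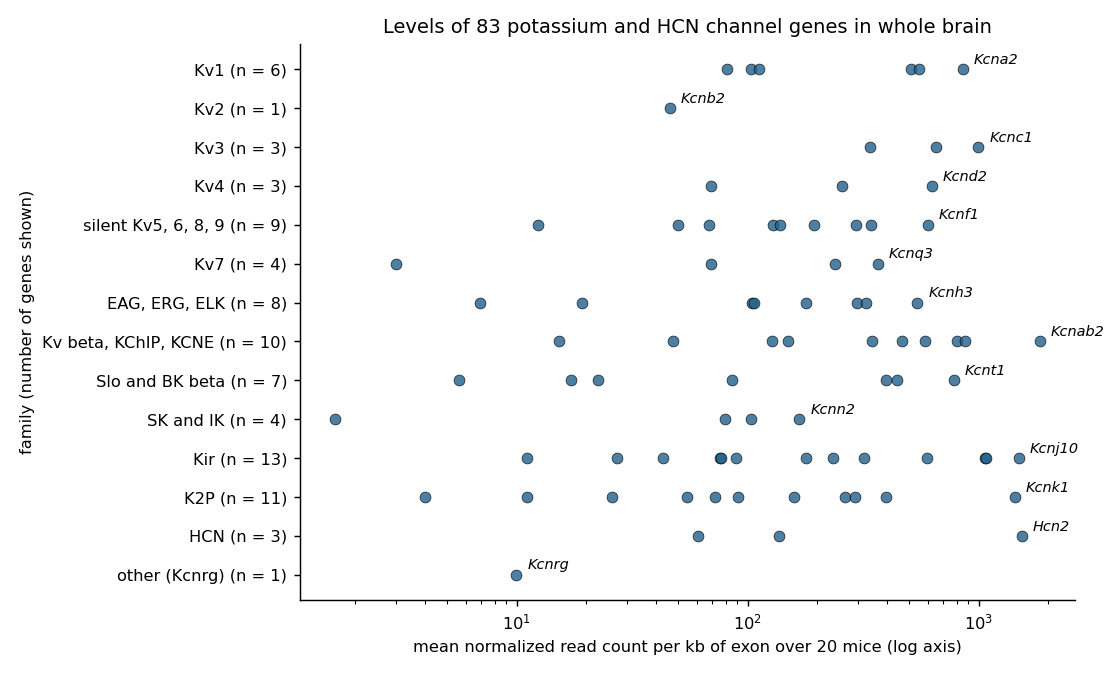
Mean normalized read count per kb of exon over 20 mice (log axis) for 83 genes, by family, with the highest gene shown in each family named. Levels within most families spread over 1 or more orders of magnitude, and Kcnab2, Hcn2, Kcnj10 and Kcnk1 lie furthest to the right.

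The first comparison asked which channel genes differed between P21 and P70, in WT mice and in KO mice separately, so that the 2 tests share no mouse. In WT mice, 7 of the 85 genes tested rose with age, which is 8.24% against 4.62% of all 17630 genes tested. None fell, against 4.7% of all genes (limma with Benjamini-Hochberg adjustment). In KO mice, 4 of 85 rose (4.71% against 3.78% of all 17641 genes) and 2 fell (2.35% against 4.53%). Under quantile normalization the KO counts were 4 and 1. Without adjustment, at p under 0.05, 12 genes were higher and 1 lower in WT mice (12.6% and 11.9% of all genes) and 12 higher and 8 lower in KO mice (11.1% and 11.6%). With a change of at least 1.5-fold also required, 2 genes rose and 0 fell in WT (1.37% and 1.87% of all genes), and 0 rose and 1 fell in KO mice (1.25% and 2.06%). The change was above 0 for 49 of 85 genes in WT (57.6% against 50.2%) and for 46 in KO mice (54.1% against 48% of all genes). The median change of the 85 genes was 0.033 on the log2 scale in WT and 0.020 in KO mice, against 0.001 and -0.010 over all genes, so the middle of the group lay close to its P21 level. Of the 7 WT calls 57.1%, and of the 6 KO calls 66.7%, were calls in both genotypes. These were 4 genes (4.71% of the 85, against 5.49% of the 17437 genes tested in both), among them Kcnh4 and Kcns1, so the share called in both was not above that of all genes.

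Kcnh4, an ELK-type voltage-gated subunit found mostly in the forebrain, had 371.2, 312.2, 318.7, 301.8 and 335.5 normalized reads in WT mice 1 to 5 at P21 and 500.5, 474.8, 534.5, 513.1 and 658.7 at P70. In KO mice it had 354.5, 336.3, 265.8, 309.7 and 361.3 at P21 and 442.5, 443.9, 473.1, 473.1 and 609.4 at P70. Every P70 mouse was above every P21 mouse of its genotype, and mouse 5 was the highest at P70 in both. The log2 change was 0.70 (SE 0.10, 1.63-fold, adjusted p = 0.000789) in WT and 0.58 (SE 0.11, 1.5-fold, adjusted p = 0.00766) in KO mice. Without both P70 mice numbered 5 it was 0.63 (adjusted p = 0.000246) and 0.50 (adjusted p = 0.00218).

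Kcns1, a silent subunit that changes the gating of Kv2 channels, had 318.2, 318.7, 320.4, 291.1 and 295.0 normalized reads in WT mice at P21 and 450.9, 371.7, 369.0, 407.6 and 508.9 at P70. In KO mice it had 336.4, 311.5, 274.7, 274.9 and 335.5 at P21 and 442.9, 407.0, 426.9, 454.5 and 553.7 at P70. The ages did not overlap in either genotype. Kcns1 rose by 0.44 (SE 0.10, 1.36-fold, adjusted p = 0.0143) in WT and by 0.57 (SE 0.10, 1.49-fold, adjusted p = 0.00487) in KO mice on the log2 scale.

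**Figure D2:**
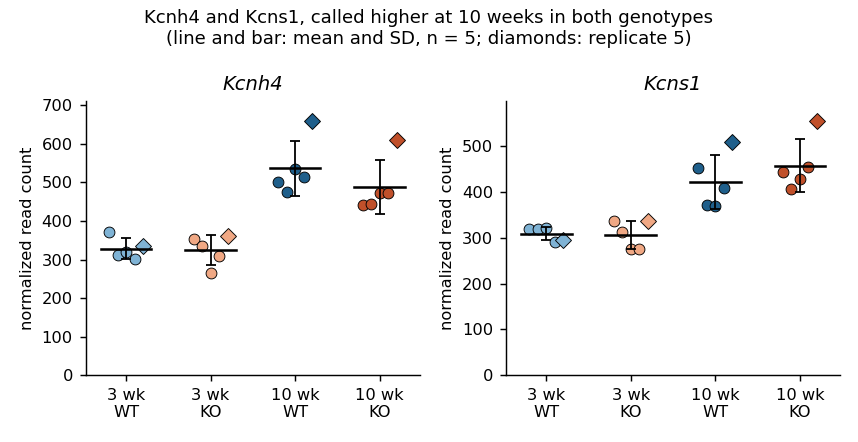
Normalized read count (axis from 0) of Kcnh4 and Kcns1 in each mouse, by age and genotype; lines and bars are the mean and SD of 5 mice and diamonds mark mouse 5 of each group. All P70 points lie above all P21 points of the same genotype for both genes.

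For Kcns1, the 250 bases before its RefSeq start are shown here because the gene was called in both genotypes and its start is the same in both annotations used. The window lies on the minus strand at chr2:164171114-164171363 (GRCm38.p6), and capitals mark a match to the GC box GGGCGG on either strand.

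Kcns1: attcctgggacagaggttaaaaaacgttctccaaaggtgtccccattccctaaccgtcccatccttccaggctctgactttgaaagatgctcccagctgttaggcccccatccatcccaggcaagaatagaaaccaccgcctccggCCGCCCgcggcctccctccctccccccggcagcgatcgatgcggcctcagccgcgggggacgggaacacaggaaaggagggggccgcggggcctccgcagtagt

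The Kcns1 window holds 17 CG dinucleotides and 63.2% G and C, against medians of 8 and 59.6% over the 86 windows of the 62 member genes with an entry, and of 6 and 52.4% over all 32851 windows. A GC box stood in 48.8% of the member windows and in 32.7% of all windows. A TATA box (TATAAA, either strand) stood in 3.49% of member windows and in 12.4% of all, and a CCAAT box (CCAAT, either strand) in 27.9% and 33.8%. The full cAMP response element TGACGTCA was found in 0 member windows and in 1.55% of all.

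Of the genes called in WT mice but not in KO mice, Kcnc1 encodes a Kv3 subunit that lets neurons fire fast. It had 8939.4, 8935.9, 8172.1, 8307.0 and 8459.4 normalized reads in WT mice at P21 and 9699.2, 9917.5, 10166.1, 9885.2 and 10671.9 at P70, with no overlap. The change was 0.23 (SE 0.05, 1.18-fold, adjusted p = 0.0173) in WT and 0.11 (SE 0.06, adjusted p = 0.315) in KO mice, and the difference between the genotypes was -0.13 (95% confidence interval -0.28 to 0.02, adjusted p = 1 for the interaction), so a difference was not shown. The WT call was lost without P21 WT mouse 4 (adjusted p = 0.0578), with the replicate number as a block (0.0667), and with that block and a length and GC correction (0.0834). Its relatives Kcnc2 and Kcnc4 had changes of 0.07 and 0.03 in WT mice, with adjusted p of 0.651 and 0.839, and of 0.16 (adjusted p = 0.0341) and -0.03 (0.750) without both P70 mice numbered 5.

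Kcnab2, the most abundant gene of the group per kb, had 8692.4, 9446.1, 8463.4, 8570.8 and 9624.9 normalized reads in WT mice at P21 and 10548.2, 9754.5, 10276.2, 10719.8 and 13439.6 at P70. Its WT groups did not overlap, with mouse 5 far above the rest at P70. The change was 0.28 (SE 0.08, 1.22-fold, adjusted p = 0.0494) in WT and 0.21 (SE 0.10, adjusted p = 0.248) in KO mice. The WT call was lost without any single P21 mouse or without P70 mouse 1, 3 or 4, with adjusted p from 0.0582 to 0.121. It was also lost under limma without the trend (0.0943), quantile normalization (0.0752), the single fit over all 20 mice (0.0633), no low-value filter (0.0526), the replicate block (0.0512) and median-of-ratios rescaling (0.0502). Without P70 KO mouse 5 the KO change was 0.10 (adjusted p = 0.129). Its relative Kcnab3 had a change of 0.30 (adjusted p = 0.0526) in WT mice.

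Kcnj13, the Kir channel of the choroid plexus epithelium, had 57.2, 60.3, 52.8, 54.2 and 98.5 normalized reads in WT mice at P21 and 89.8, 117.4, 115.4, 71.1 and 129.6 at P70. The ages overlapped through P21 mouse 5. The change was 0.70 (SE 0.20, 1.62-fold, adjusted p = 0.0472) in WT and 0.40 (SE 0.17, adjusted p = 0.179) in KO mice. The WT call was lost without P21 mouse 1, 2, 3 or 4 or P70 mouse 1, 2, 3 or 5, with adjusted p from 0.062 to 0.116, and under limma without the trend (0.0671). Of 6 choroid plexus markers, Kl rose in WT mice (0.69, adjusted p = 0.00877), and the other 5 did not pass the test.

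The 2 genes that fell in KO mice were Kcnj10 and Kcnh8. Kcnj10, the main Kir subunit of astrocytes, also present in oligodendrocytes, had 9333.3, 8880.0, 9454.4, 8919.3 and 8586.0 normalized reads in KO mice at P21 and 7216.0, 8684.3, 6902.8, 7703.6 and 6720.3 at P70. The ages overlapped only through P70 mouse 2. In WT mice it had 7895.5, 8202.6, 7639.2, 8476.1 and 8976.1 at P21 and 7846.0, 7895.4, 7472.8, 7625.4 and 6639.7 at P70. Kcnj10 fell by 0.28 in KO mice (SE 0.07, 0.821-fold, adjusted p = 0.0331), and its change in WT mice was -0.14 (SE 0.07, adjusted p = 0.228). The interaction was -0.15 (confidence interval -0.35 to 0.05, adjusted p = 1). The P21 KO mice also enter the genotype comparison of Kcnj10 given further on. The KO call was lost without any single P21 mouse or without P70 mouse 1, 3 or 4, with adjusted p from 0.0517 to 0.0872, under limma without the trend (0.0623) and with the replicate block (0.0791).

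Markers of mature oligodendrocytes were read beside Kcnj10, and 7 of 7 fell in both genotypes. Their median changes were -1.14 in WT and -1.30 in KO mice, where Kcnj10 changed by -0.14 and -0.28. Their summed level ran from 369700 to 545300 over the P21 mice and from 140000 to 185400 over the P70 mice. Of 5 markers of oligodendrocyte precursors, 4 fell in WT and 3 in KO mice, with medians of -0.54 and -0.55. Of 7 astrocyte markers 0 passed the test in either genotype, and their sum in KO mice was 86170 to 95940 at P21 and 67500 to 103600 at P70. The part of these cell types in the result was not tested.

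Kcnh8, an ELK-type subunit at low level, had 30.6, 36.6, 40.5, 34.0 and 44.1 normalized reads in KO mice at P21 and 20.1, 27.0, 22.3, 26.4 and 20.9 at P70, with no overlap. In WT mice it had 24.4, 40.1, 29.9, 34.0 and 39.8 at P21 and 28.4, 34.7, 40.0, 26.9 and 27.5 at P70, and there the ages overlapped widely. Kcnh8 fell by 0.65 in KO mice (SE 0.17, 0.638-fold, adjusted p = 0.0381) and its change in WT mice was -0.09 (SE 0.20, adjusted p = 0.836). Kcnh8 had the lowest p-value of the group in the interaction, at -0.56 (confidence interval -1.07 to -0.06, adjusted p = 1). The KO call was lost without any single P21 mouse or without P70 mouse 1, 3 or 4, with adjusted p from 0.0502 to 0.095, under quantile normalization (0.0510), with the replicate block (0.107), with that block and the length and GC correction (0.0725), and without the P70 mice numbered 5 and the P21 mice numbered 3 (0.0637).

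By family, the Kv1 genes, which set spike threshold and axonal repolarization, had 0 of 6 calls in either genotype, with WT changes from -0.15 to 0.05 and KO changes from -0.46 to 0.09. The Kv2 gene Kcnb2 had changes of -0.07 in WT and -0.08 in KO mice (adjusted p = 0.867 and 0.888), and of 0.12 and 0.16 (adjusted p = 0.491 and 0.401) without both P70 mice numbered 5. Of the 9 silent subunits, 7 had a change above 0 in each genotype with all mice, but Kcns1 was the single call in each. Kcng1 had 0.22 in WT (adjusted p = 0.232) and 0.30 in KO mice (adjusted p = 0.0547), and Kcns3 had 0.14 and 0.19 (adjusted p = 0.469 and 0.293). For Kcng1 and Kcns3 the P70 KO mice all lay above the P21 KO mice, as was so for 5.4% of all genes. For Kcns3 the margin was small, with 152.8 as the lowest P70 value and 152.0 as the highest P21 value. Without both P70 mice numbered 5, Kcng1, Kcng3 and Kcns2 also rose in KO mice (adjusted p = 0.0155, 0.0300 and 0.0494). None of them was called in WT mice on that choice.

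Among the EAG, ERG and ELK genes, Kcnh3, the third ELK gene, lay between its relatives with 0.21 in WT (adjusted p = 0.162) and 0.25 in KO mice (adjusted p = 0.125). With all mice, none of the 3 Kv4 genes, which carry the A-type current, of the 7 Slo and BK beta genes, of the 3 SK genes tested or of the 10 K2P genes tested passed in either genotype. Without both P70 mice numbered 5, the Kv4 gene Kcnd3 and the SK gene Kcnn3 rose in both genotypes. On that choice Kcnk3 rose in WT mice, Kcnt2 rose in KO mice, and Kcnt1, Kcnk1 and Kcnk6 fell in KO mice. Of the 13 Kir genes 1 rose in WT (Kcnj13) and 1 fell in KO mice (Kcnj10). Of the 10 auxiliary subunit genes 1 rose in WT (Kcnab2) and 0 in KO mice. The largest changes by value in WT mice belonged to low genes as well as called ones: Kcng3 had 0.73 with an SE of 0.35 (adjusted p = 0.225).

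Most channel genes did not pass the test with age. The P21 and P70 mice were fully separated with the P70 mice higher for 6 of 85 genes in WT (7.06% against 5.2% of all genes) and for 7 in KO mice (8.24% against 5.4%). With the P70 mice lower this held for 0 genes in WT (0% against 5.6%) and 2 in KO mice (2.35% against 5.52%). Across the 85 genes, 68 changed in the same direction in WT and KO mice (80.0%, the same share as of all genes), and the changes correlated at r = 0.74 (0.72 across all 17437 genes tested in both), a description over genes, which are not independent. KO and WT mouse 5 at P70 enter these changes on both sides.

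**Figure D3:**
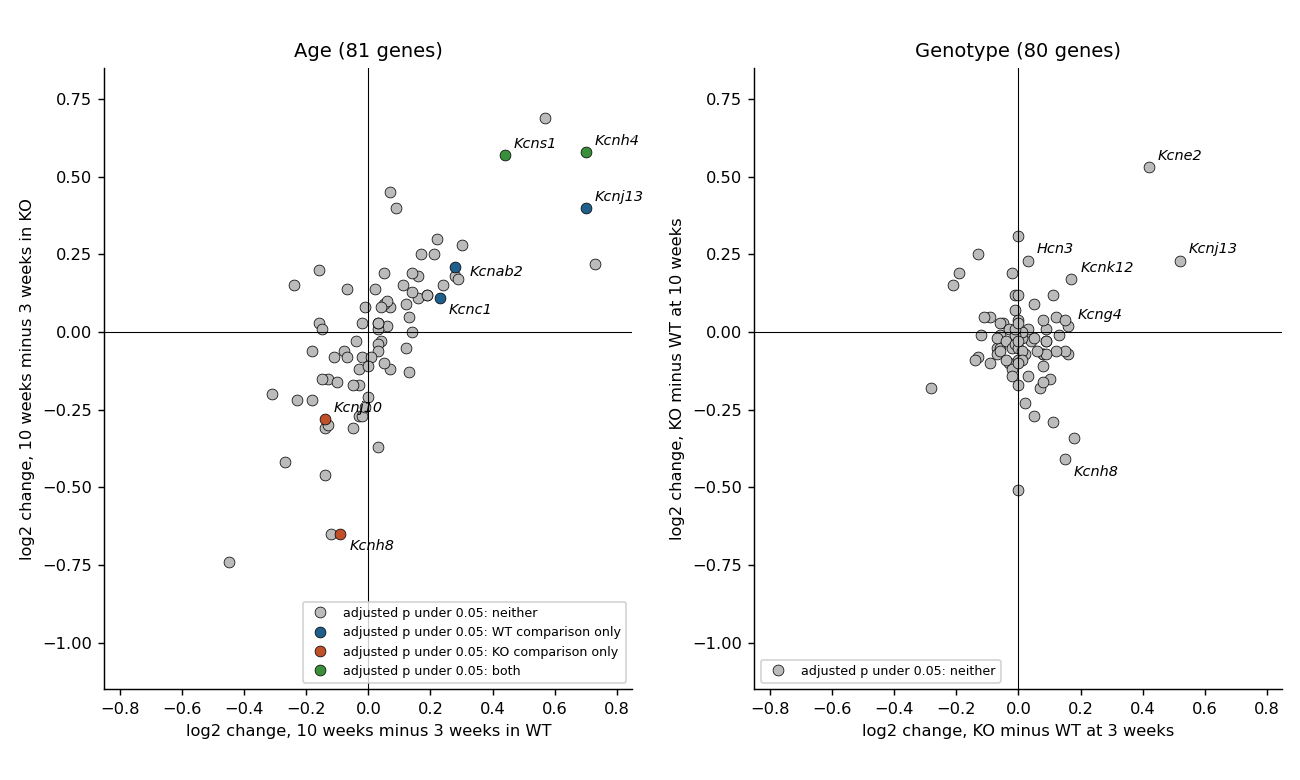
Log2 change of each gene with age in WT (x axis) against KO mice (y axis) on the left, and between KO and WT at P21 (x axis) against P70 (y axis) on the right; colours mark genes with an adjusted p under 0.05. On the left (81 genes), Kcnh4 and Kcns1, called in both genotypes, lie at the upper right, and on the right (80 genes) no gene is coloured.

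Hcn2, an HCN subunit that is broad in the brain and was the most abundant of its family, had 4088.9, 4180.1, 4535.5, 3863.3 and 4672.9 normalized reads in WT mice at P21 and 5012.4, 4546.5, 5261.1, 4685.3 and 6658.8 at P70. In KO mice it had 4760.2, 4697.8, 5323.1, 4011.0 and 4852.3 at P21 and 4352.6, 5350.1, 4789.8, 5118.9 and 7452.7 at P70. The ages overlapped in both genotypes, and mouse 5 was the highest at P70. The change was 0.28 (SE 0.10, adjusted p = 0.0889) in WT and 0.18 (SE 0.13, adjusted p = 0.466) in KO mice. Without both P70 mice numbered 5 the changes were 0.19 (adjusted p = 0.0569) and 0.05 (adjusted p = 0.678). In WT mice Hcn2 passed the threshold with the replicate block (0.28, adjusted p = 0.0491), after correction for length and GC (0.18, adjusted p = 0.0381), and without the P70 mice numbered 5 and the P21 mice numbered 3 (0.22, adjusted p = 0.0402).

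Hcn3 and Hcn4 lay lower. Hcn3, a less studied isoform, ran from 488.5 to 623.6 normalized reads in WT and from 486.8 to 713.0 in KO mice at P21, and from 465.7 to 581.4 in WT and from 532.1 to 664.4 in KO mice at P70. Hcn4, the slow pacemaker isoform, prominent in the thalamus, ran from 365.5 to 416.6 in WT and from 372.3 to 438.8 in KO mice at P21, and from 321.0 to 419.4 in WT and from 232.9 to 406.4 in KO mice at P70. All of these ranges overlapped between ages. The change of Hcn4 in KO mice was -0.31 (SE 0.13, adjusted p = 0.179). In WT mice it was -0.14 (SE 0.09, adjusted p = 0.365). The interaction was -0.17 (confidence interval -0.5 to 0.15), so a difference between the genotypes was not shown. Without both P70 mice numbered 5, Hcn4 fell by 0.39 in KO mice (adjusted p = 0.0300). Its WT change was then -0.19 (adjusted p = 0.0891).

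Per kb, Hcn2 (1540 ± 268) exceeded Hcn3 (136 ± 16.1), and Hcn3 exceeded Hcn4 (61.0 ± 7.84), each by more than 1 SD over mice.

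**Figure D4:**
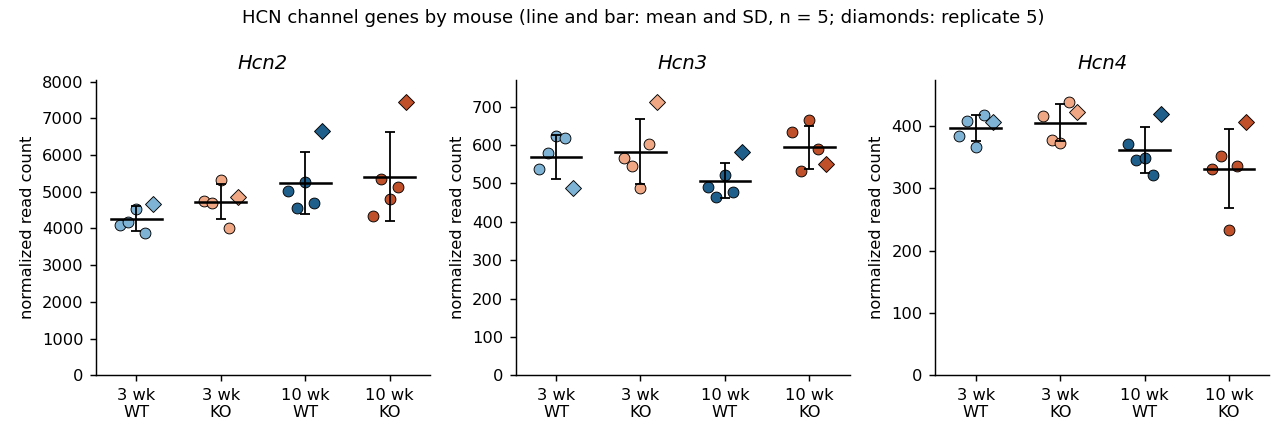
Normalized read count (axis from 0) of Hcn2, Hcn3 and Hcn4 in each mouse, by age and genotype; lines and bars are the mean and SD of 5 mice and diamonds mark mouse 5. At P70 the diamonds are the highest Hcn2 values (6658.8 in WT, 7452.7 in KO).

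Both P70 mice numbered 5 lay above all the other 8 P70 mice for 27 of 84 channel genes and below all 8 for 30. These shares of 32.1% and 35.7% compare with 26.8% and 26.2% of all 17613 genes. Potassium channel genes among the lowest were Kcng3 (18.6 normalized reads on average in these 2 mice against 57.4 in the other 8), Kcnt2 (262.8 against 706.0), Kcna3 (83.9 against 222.2) and Kcnh7 (1534 against 3109). Among the highest were Kcnt1 (10590 against 6637), Kcnj8 (143.2 against 93.9) and Kcnh2 (2239 against 1531). The difference correlated across the 84 genes with the GC content of the transcript at r = 0.62 and with its log2 length at r = -0.39, and across all genes at 0.54 and -0.26. Channel transcripts had a median GC content of 52.2% and a median exon length of 4508 bases, against 49.3% and 3806 bases over all genes.

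Leaving both of these mice out raised the age counts, of the channel genes and of all genes. In WT mice 13 channel genes then rose (8.89% of all genes did) and 1 fell (8.11% of all). In KO mice 15 rose (10.6% of all) and 10 fell (10.7% of all). The genes called in both genotypes, all in the same direction, were then 9 (10.6%, against 12.2% of the 17449 genes tested in both), among them Kcnh4 and Kcns1 as before, the Kv3 gene Kcnc2, the Kv4 gene Kcnd3, the SK gene Kcnn3 and, lower at P70, the KChIP gene Kcnip1. For Kcnip1 the change was -0.24 (adjusted p = 0.0311) in WT and -0.28 (adjusted p = 0.00932) in KO mice. Its gene overlaps Kcnmb1, the BK beta subunit of smooth muscle, over part of chromosome 11, and reads of overlapping exons cannot be told apart without strand. Group means ran from 21.15 to 27.25 normalized reads for Kcnmb1 and from 849.2 to 986.6 for Kcnip1. The part of such reads was not tested. Genes that fell in KO mice on this choice included Kcnj10, Kcnh8, Hcn4, the leak channels Kcnk1 and Kcnk6, Kcnt1 and Kcna5. The interaction on this choice passed the adjusted threshold for 0 channel genes and 0 of all 17652 genes, so a difference between the genotypes was not shown.

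Several channel genes lie side by side in the genome. Kcnj9 and Kcnj10 lie 11891 bases apart on chromosome 1, and their changes were 0.11 and -0.14 in WT and 0.15 and -0.28 in KO mice. On chromosome 6, the Kv1 genes Kcna5, Kcna1 and Kcna6 changed by -0.46, -0.31 and 0.09 in KO and by -0.14, -0.05 and 0.05 in WT mice, and none of them passed the test. Without both P70 mice numbered 5 the KO changes were -0.52 for Kcna5 (adjusted p = 0.0146), -0.10 for Kcna1 (0.453) and 0.04 for Kcna6 (0.593), and P70 KO mouse 5 had 1280.8 reads of Kcna1 where the other 4 had 2355.6 to 2790.8.

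Partner proteins outside the symbol rule were read from a list of 35 genes, of which 34 are in the table. In WT mice 2 of 34 rose and 0 fell, where 4.62% and 4.7% of all genes did. In KO mice 0 rose and 2 fell, where 3.78% and 4.53% of all genes did. In the interaction 0 of the 34 passed, so a difference between the genotypes was not shown. Pex5l, the HCN subunit that controls channel traffic, rose by 0.33 in WT mice (SE 0.09, adjusted p = 0.0286) and had a change of 0.21 (adjusted p = 0.202) in KO mice. Abcc8, the sulfonylurea receptor that pairs with Kcnj11, rose by 0.32 (SE 0.08, adjusted p = 0.0215) in WT mice and had 0.26 (adjusted p = 0.118) in KO mice. Abcc9, the receptor that pairs with Kcnj8 and is also a mural cell gene, fell by 0.53 (SE 0.11, adjusted p = 0.0107) in KO mice and had -0.32 (adjusted p = 0.118) in WT mice. Lgi2 fell by 0.22 (SE 0.06, adjusted p = 0.0379) in KO mice and had -0.16 (adjusted p = 0.136) in WT mice. Amigo1, which joins Kv2 channels, had 0.15 in WT and 0.20 in KO mice, with adjusted p of 0.145 and 0.0567.

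The second comparison, on what the loss of Katnal2 changes, set KO against WT mice at each age. At P21, 0 of 85 channel genes and 0 of all 17610 genes passed the adjusted threshold, which is 0% of both (limma). At an unadjusted p under 0.05 there were 6 channel genes, all higher in KO mice, which is 7.06% against 1.49% of all genes; 0 were lower, against 0.948%. At P70, 0 of 84 channel genes and 0 of all 17613 genes passed, and 2 and 199 did so without adjustment. Of these 2, 1 was higher and 1 lower in KO mice, against 0.59% and 0.539% of all genes. For 77 of 85 genes at P21 and 65 of 84 at P70, the 95% confidence interval of the difference lay within 1.5-fold in either direction. The other genes were not bounded that closely.

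The genes at P21 included Kcng4, Kcnj13, Kcnj10, Kcnab2 and Kcnk12, and each had an adjusted p of 1. Kcng4, a silent Kv subunit, had 1003.4, 1087.0, 1019.9, 996.3 and 1031.5 normalized reads in WT and 1147.4, 1210.8, 1179.4, 1081.1 and 1106.6 in KO mice. The groups overlapped by 1 KO mouse, and the difference was 0.16 (confidence interval 0.05 to 0.26). At P70 it was 0.02 (confidence interval -0.26 to 0.30). Kcnk12, a K2P subunit, differed by 0.17 at P21 (confidence interval 0.01 to 0.34) and by 0.17 at P70 (-0.08 to 0.42). Kcnj10 differed by 0.13 at P21 (0.03 to 0.24) and by -0.01 at P70 (-0.19 to 0.17). No channel gene separated the KO and WT mice fully at either age, in either direction (0.256% of all genes were fully higher and 0.204% fully lower at P21, and 0.0965% each at P70), and 0 channel genes had an unadjusted p under 0.05 at both ages.

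Kcnj13 and Kcne2, both potassium channel genes of the choroid plexus, had the largest positive differences of the group, Kcnj13 at P21 and Kcne2 at P70. Kcnj13 had 78.5, 96.2, 123.5, 74.3 and 86.7 normalized reads in KO mice at P21, against the WT values given above, and 126.4, 158.1, 110.2, 92.5 and 121.4 at P70. The difference was 0.52 at P21 (confidence interval 0.11 to 0.92, adjusted p = 1) and 0.23 at P70 (-0.18 to 0.64, adjusted p = 1). Kcne2, an auxiliary subunit that in the choroid plexus joins Kv1 and Kv7 channels, had 52.0, 62.8, 36.4, 54.8 and 70.2 in WT and 65.0, 83.0, 103.7, 57.8 and 61.3 in KO mice at P21. At P70 it had 76.8, 95.6, 80.3, 44.5 and 129.0 in WT and 134.1, 136.8, 153.1, 80.7 and 97.2 in KO mice. Its difference was 0.42 at P21 (-0.01 to 0.85, adjusted p = 1) and 0.53 at P70 (-0.04 to 1.11, adjusted p = 1). At P70 the difference of Kcne2 was 0.32 without WT mouse 4, 0.70 without WT mouse 5 and 0.77 without both mice numbered 5, and that of Kcnj13 was 0.10 without WT mouse 4, 0.13 without KO mouse 2, 0.32 without KO mouse 4 and 0.31 without both mice numbered 5, with adjusted p of 0.928 or more in each. Neither gene separated the genotypes at either age.

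Markers of the choroid plexus were read beside both genes, with no test of association. Their summed level was mostly Ttr and Enpp2, at 11225.9 and 12437.6 of 24680 in P21 WT mouse 1. All 6 markers lay above 0 in KO against WT mice at both ages, though 0 passed the test, and the sum of the 6 ran from 24680 to 30770 in WT and from 27000 to 42730 in KO mice at P21, and from 22020 to 38520 in WT and from 24890 to 39130 in KO mice at P70. In each of the 4 groups the mouse with the highest Kcnj13 was also the mouse with the highest marker sum. In P21 WT mice this was nearly a tie: the sum was 30766 in mouse 5 and 30759 in mouse 2, with Kcnj13 at 98.5 and 60.3. KO mouse 3 at P21, with 42730, also had the highest Kcne2 of its group, and KO mouse 4 at P70, with 24890, had the lowest Kcnj13 and Kcne2 of its group. Other ranks did not match: the lowest marker sums in WT mice were those of mouse 1 at both ages, while Kcnj13 and Kcne2 were lowest in mouse 3 at P21 and mouse 4 at P70, and the highest Kcne2 among P70 KO mice was that of mouse 3. The part of the amount of choroid plexus in each brain sample in these values was not tested.

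**Figure D5:**
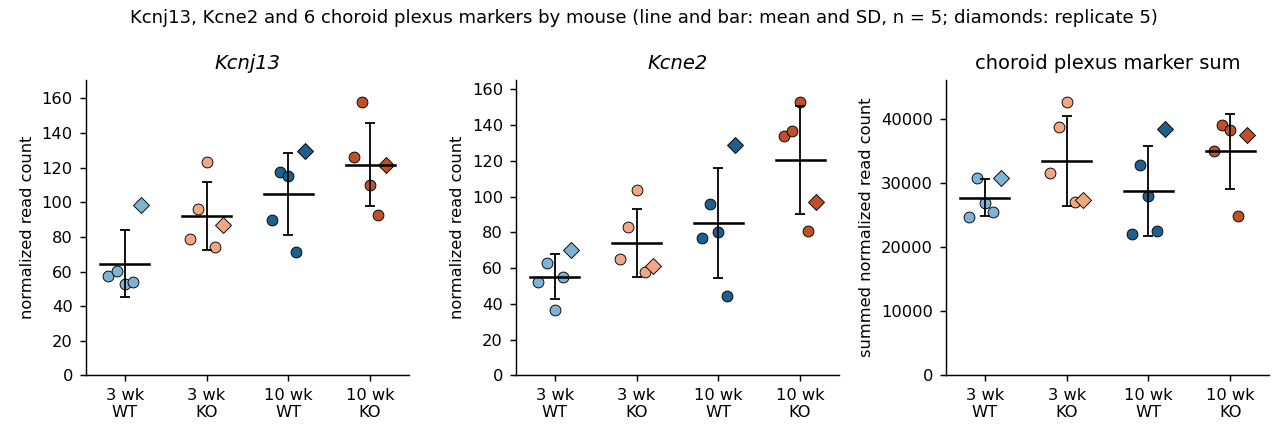
Normalized read count (axes from 0) of Kcnj13 and Kcne2 and the summed count of 6 choroid plexus markers in each mouse; lines and bars are the mean and SD of 5 mice and diamonds mark mouse 5. The genotypes overlap in every panel at both ages.

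The windows of Kcnj13 and Kcne2 are shown because these 2 genes share this tissue. Kcnj13 lies on the minus strand of chromosome 1 (window chr1:87394730-87394979) and Kcne2 on the plus strand of chromosome 16 (first of 2 windows, chr16:92292139-92292388), both GRCm38.p6 from RefSeq. Capitals mark the CCAAT box and the TATA box in Kcnj13 and the GC box in Kcne2, on either strand.

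Kcnj13: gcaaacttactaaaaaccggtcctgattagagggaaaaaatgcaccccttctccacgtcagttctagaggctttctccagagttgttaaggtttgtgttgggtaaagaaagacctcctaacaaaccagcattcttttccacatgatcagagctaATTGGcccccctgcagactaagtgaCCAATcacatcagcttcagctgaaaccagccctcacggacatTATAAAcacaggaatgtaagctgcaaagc

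Kcne2: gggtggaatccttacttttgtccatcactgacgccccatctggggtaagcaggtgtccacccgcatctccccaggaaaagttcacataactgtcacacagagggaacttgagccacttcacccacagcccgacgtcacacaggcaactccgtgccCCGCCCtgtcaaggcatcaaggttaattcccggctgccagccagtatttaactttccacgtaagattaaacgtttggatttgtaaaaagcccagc

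Kcnj13 held 3 CG dinucleotides, 2 CCAAT boxes and 1 TATA box, and Kcne2 held 9 CG dinucleotides and 1 GC box. These letters are a description of the windows, whose shares among all genes are given above.

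At P70 the smallest unadjusted p-values belonged to Hcn3 and Kcnh8. Hcn3 had 491.6, 465.7, 521.7, 477.1 and 581.4 normalized reads in WT and 633.8, 532.1, 664.4, 589.3 and 549.8 in KO mice. The groups overlapped through WT mouse 5, and the difference was 0.23 (confidence interval 0.02 to 0.43, adjusted p = 1). Without both P70 mice numbered 5 it was 0.30, with an adjusted p of 1. Kcnh8 differed by -0.41 (-0.82 to 0.00, adjusted p = 1). Kcnj14, a Kir subunit, differed by 0.31 (-0.09 to 0.70) and the Kv1 gene Kcna5 by -0.27 (-0.63 to 0.09), and neither had an unadjusted p under 0.05.

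Hcn3 and Hcn4 both differed between the genotypes by 0.03 at P21, and Hcn4 by -0.14 at P70 (-0.44 to 0.16). The difference of Hcn2 was 0.15 at P21 (-0.01 to 0.30) and 0.04 at P70 (-0.28 to 0.35).

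Over the whole group, 48 of 85 differences were above 0 at P21 (56.5% against 52.5% of all genes) and 29 of 84 at P70 (34.5% against 47.8%). The sign was the same at both ages for 41.7% of the channel genes and for 51.2% of all genes, and across the 84 genes the differences at P21 and P70 correlated at r = 0.116. The interaction of age and genotype passed the adjusted threshold for 0 of 85 channel genes and 0 of all 17637 (limma), and at an unadjusted p under 0.05 for 1 and 296. That gene was Kcnh8, on the lower side (1.03% of all genes, and 0.652% on the higher side with 0 channel genes). The interaction was above 0 for 31 of 85 genes (36.5% against 46.9%). These shares of signs and the correlation are descriptions over genes measured in the same mice, which are not independent, and were not tested. The other 2 genes with the smallest p in the interaction were Kcnh6, an ERG-type subunit, at 0.36 (-0.06 to 0.78), and Kcnc1, given above.

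Several members well known in neurons had small estimated differences between the genotypes. Kcna1 and Kcna2, the Kv1 subunits of axons, differed between KO and WT by 0.10 and 0.08 at P21 and by -0.15 and -0.07 at P70. Kcnd2, the A-type subunit of dendrites, differed by -0.03 and -0.10, the Kv7 subunit Kcnq3 by -0.02 and -0.12, the BK channel Kcnma1 by 0.01 and -0.09 and its neuronal beta subunit Kcnmb4 by -0.06 and 0.03. Kcnn2, the main SK subunit, had the tightest interval of these at P21, -0.08 to 0.09 around a difference of 0.00. At P70 the interval of Kcna1 ran from -0.63 to 0.32, so a difference of 1.5-fold was not excluded for it. That of Kcnq3 ran from -0.51 to 0.28 and that of Kcnd2 from -0.49 to 0.28. The intervals of all these genes include 0.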

How the data were processed

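Poly-A RNA of the whole brain of 20 male mice, 5 per age and genotype, was read with a library kit that does not keep strand. The deposited values are a signal per gene that the authors made: reads were quantified with Salmon 1.1.0 on GRCm38 with GC bias correction, summed per gene and normalized with DESeq2 (R 3.6.2 and DESeq2 1.26.0 in the submitters' processing notes). The values are not whole numbers and whole reads could not be recovered from them, so the depth of each mouse is unknown, no counting interval is given and no count test was run.

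Genes with a mean of at least 10 over the mice of a fit were tested on log2(value + 1) with limma 3.58.1 in R 4.3.3 (intensity trend, two-sided, Benjamini-Hochberg over all genes tested, threshold 0.05). Fold changes are on this log2(value + 1) scale, which understates changes of low genes. Age was tested within WT and within KO mice, genotype within each age, and their interaction over all 20 mice. The code was tested on simulated data. Exon lengths and coordinates came from the GENCODE annotation of GRCm38, matched for 19447 of 19463 genes, and promoter windows from RefSeq on GRCm38.p6, with both strands searched.

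Members, gene lists and tests were chosen with earlier results of these data known. The genes named with values were the HCN genes, members called in both age comparisons, the highest member per kb of each family, 6 members at each age by lowest p between genotypes, 3 by lowest p in the interaction, and a set of well known channels. A few members that this rule covers are not reported here, although they stay in every fit and count. Other members named were singled out after their values were seen. Replicate numbers were not taken to pair the mice, since no 2 groups had all 5 same-numbered pairs correlated at over 0.1 in their deviations. For KO and WT at P70, 4 of 5 were, with values from 0.075 to 0.705 (mouse 5) and a median of 0.17. At P21 2 of 5 were, and across ages 1 and 2 of 5 in KO and WT mice. This cutoff cannot exclude a pairing, so the replicate block was run as an alternative. Alternatives were the variance model, filter, pseudocount, scaling, a length and GC correction, the replicate block, 1 fit over all mice, the call rule and leaving out each mouse. Those that left out both P70 mice numbered 5, those together with both P21 mice numbered 3, or combined the block with the length and GC correction were chosen after seeing the data.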

Additional observations from a re-analysis of the deposited data

Results flagged for a closer look

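In 64 groups of 5 mice (16 channel genes in 4 groups), 5 had a mouse whose distance from the nearest other mouse exceeded Dixon's critical value of 0.71 of the group's range, where chance gives about 1 in 20. Of these, 3 were P70 mice numbered 5. Kcnab2 was 15118.7 normalized reads in KO mouse 5 (the others 9793.7 to 11113.7) and 13439.6 in WT mouse 5 (9754.5 to 10719.8), and Kcnh4 was 609.4 in KO mouse 5 (442.5 to 473.1). The choroid plexus gene Kcnj13 was 98.5 in P21 WT mouse 5 (52.8 to 60.3). That mouse had the highest choroid plexus marker sum of its group, 30766, but mouse 2 had 30759 with Kcnj13 at 60.3. The leak channel gene Kcnk12 was 285.3 in P21 KO mouse 4 (316.1 to 325.6).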

How the results depend on the processing

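With all mice and an adjusted p under 0.05, 7 channel genes rose and 0 fell with age in WT mice, and 4 rose and 2 fell in KO mice. Kcnh4 and Kcns1 had an adjusted p under 0.05 in both genotypes in 23 of 23 alternatives, a number that leaves out the other call rules. With at least 1.5-fold also required, neither was called in KO mice, where 0 channel genes rose, and Kcns1 (1.36-fold) was not called in WT mice.

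Counts of higher and lower genes moved as follows, and the cause was not tested. With at least 1.5-fold required, the counts were 2 and 0 in WT and 0 and 1 in KO mice, and with an unadjusted p they were 12 and 1 and 12 and 8. Without both P70 mice numbered 5 they were 13 and 1 in WT and 15 and 10 in KO mice, and without the P21 mice numbered 3 as well, 12 in WT and 14 and 8 in KO mice. The length and GC correction gave 9 and 7 in KO mice. The count of genes that fell in KO mice was 1 in limma without the trend, with a minimum mean of 50 and with quantile normalization. Leaving out single mice gave 4 (without P21 WT mouse 4) to 13 (without P70 mouse 5) rises and 0 to 1 falls in WT mice, and 3 to 15 rises and 0 to 10 falls in KO mice. The high ends in KO mice were without P70 mouse 5, and the falls were 0 without any 1 of P21 mice 1 to 4 and P70 mice 1, 3 and 4.

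The replicate block gave 6 and 0 in WT (Kcnc1 and Kcnab2 lost, Hcn2 gained) and 3 and 0 in KO mice (Kcnj10 and Kcnh8 among those lost). Of same-numbered mice, 4 of 5 pairs deviated together at P70 between genotypes, 2 of 5 at P21, and 1 and 2 of 5 across ages in KO and WT mice. The block, with the length and GC correction, gave 1 gene that fell in WT and 5 in KO mice. In the genotype comparisons and the interaction the adjusted counts were 0 under the block. At an unadjusted p, 6 genes were higher in KO mice at P21, 1 was higher and 1 lower at P70, and 1 was lower in the interaction.

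The small age change of Hcn3 in KO mice (0.03) was -0.04 with the length and GC correction, -0.04 with the block added and 0.00 without the P70 mice numbered 5 and P21 mice numbered 3. Leaving out single mice gave -0.03 to 0.11 for Hcn3. Over all pairs of a named gene and an alternative, 9 passed the threshold only under the alternative and 50 lost it. The depth of the mice is unknown, so no limit from depth can be given.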
